A study of Homo sapiens with 21 samples.

Results

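The cytokine-induced SH2 protein gene CISH, its relatives SOCS1, SOCS2 and SOCS3, the kinase genes PIM1, PIM2 and PIM3, and the transcription factor genes STAT3, STAT5A and STAT5B were followed through every condition of an RNA sequencing study of the OCI-AML5 cell line. These 10 genes were taken by symbol from the 58174 gene identifiers of the deposited tables, and all 10 were found and passed the filter on low counts. The line comes from human acute myeloid leukemia, and UM171 is a small molecule used to expand hematopoietic stem cells in culture. By the labels, control cells were collected at 72 h in DMSO, the vehicle, and after 6, 24, 48 and 72 h in UM171. A second set of cells, sgEPCR, carried a guide RNA against PROCR, the gene of the endothelial protein C receptor (EPCR), and was collected at 24 h in DMSO or in UM171. Each of these 7 groups had 3 libraries, 21 in all. The labels give UM171 at 500 nM, whereas the study's legends for the RNA sequencing of this line give a lower dose. The study used the DMSO and 24 h libraries as control cells with a guide against AAVS1, a safe-harbor locus, although their labels name no guide. The sgEPCR cells are described as clones, and the labels do not tie a library to a clone. The study calls these cells EPCR null, and how much EPCR protein they kept cannot be read from these libraries. The labels name serum medium and no cytokine, and the study's methods add GM-CSF for this line. The study lists the control DMSO libraries as time 0, in disagreement with the labels. With DMSO at 72 h, UM171 and time in culture cannot be told apart at 6, 24 and 48 h, and with DMSO at time 0 they cannot at 72 h either. Genotype, clone and time cannot be told apart between sgEPCR and control cells in DMSO under either reading, and time in DMSO enters the difference between the responses of both genotypes.

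Cytokine receptors without a kinase of their own signal through Janus kinases (JAK), which phosphorylate STAT proteins; these then enter the nucleus and switch on target genes. STAT5A and STAT5B act downstream of the GM-CSF, IL-3 and erythropoietin receptors, and STAT3 downstream of receptors of the IL-6 family and of G-CSF. CISH, SOCS1, SOCS2 and SOCS3 are known targets of STAT proteins whose products bind the receptor or the JAK and damp the signal, and the PIM genes are targets too, encoding serine/threonine kinases that are active once translated and favor survival and protein synthesis. In myeloid leukemia cells, which often depend on cytokine signals, the RNA of these genes is widely used as a readout of JAK-STAT activity.

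The DNA just upstream of the start sites is shown because STAT dimers bind a palindrome, TTCNNNGAA. CISH and PIM1 were chosen with the results known, and they were the most abundant inhibitor and kinase genes in control DMSO libraries. Sequences are from RefSeq on GRCh38.p14, 5′ to 3′ on the strand of the gene, and capitals mark matches to TTCNNNGAA, which reads the same on both strands. The CISH stretch is chr3:50611775-50612024 on the minus strand and the PIM1 stretch is chr6:37169902-37170151 on the plus strand.
CISH: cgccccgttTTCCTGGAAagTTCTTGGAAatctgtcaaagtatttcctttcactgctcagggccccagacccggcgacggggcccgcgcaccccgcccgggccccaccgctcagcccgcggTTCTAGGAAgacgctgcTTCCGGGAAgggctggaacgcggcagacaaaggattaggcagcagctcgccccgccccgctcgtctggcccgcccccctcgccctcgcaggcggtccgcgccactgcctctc
PIM1: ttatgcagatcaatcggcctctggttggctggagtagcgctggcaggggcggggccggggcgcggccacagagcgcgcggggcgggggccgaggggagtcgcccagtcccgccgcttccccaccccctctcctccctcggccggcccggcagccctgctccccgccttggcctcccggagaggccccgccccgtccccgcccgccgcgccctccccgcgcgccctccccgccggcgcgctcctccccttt
The CISH window held 4 matches, at positions -241 to -233, -230 to -222, -129 to -121 and -112 to -104 from the start site, and the PIM1 window held 0. Windows from 250 bases before to 50 bases after a start site were listed for 9 of the 10 genes, SOCS2 being the exception, and numbered 12, since SOCS3 had 2 listed start sites and STAT5A had 3. CISH was the 1 gene of these 9 with a match in a listed window. For SOCS3 the windows were chr17:78359618-78359917 and chr17:78360876-78361175, and for STAT5B chr17:42276342-42276641. They did not hold the annotated gene starts on the minus strand, 78360077 for SOCS3 and 42288633 for STAT5B. The bases just upstream of those starts were thus not searched. Among 35116 such windows of all genes, 7.66% held at least 1 match and 0.0199% held at least 4. A match describes the letters in this window and was not tested as a binding site.

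**Figure D1:**
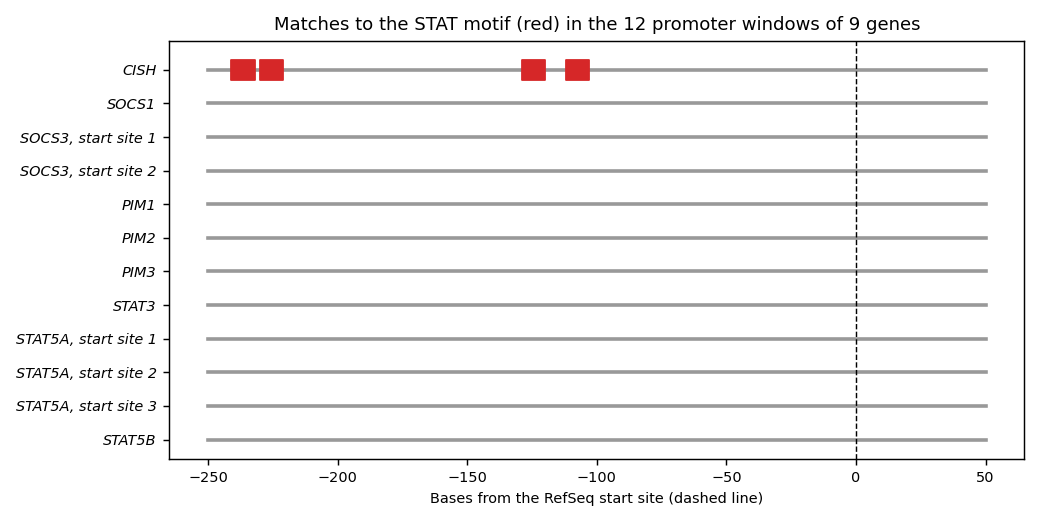
Matches to TTCNNNGAA (red blocks) along the 12 promoter windows (grey lines) of the 9 genes with an entry, 1 line for each listed start site, with the distance in bases from the RefSeq start site on the horizontal axis and the dashed line at the start site. The 4 blocks lie upstream of CISH, and the other 11 windows hold none.

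Library totals ranged from 24.3 to 51.5 M counts, with a median of 33.9 M. A pair of sgEPCR libraries stood apart by the share of counts from mitochondrial genes, DMSO replicate 1 at 35.9% and UM171 replicate 2 at 32.2%; the share in the remaining 19 was 7.73 to 13.5%. Against the other libraries of their group, those 2 also had a GC slope of -0.40 and -0.59 on the log2 scale per 10 points of GC content, while the slope in any control library was within 0.08 of 0. SOCS1 and PIM3 were among the most GC-rich genes tested, at 67.9% and 68.4% GC. Among markers of the line, CD33, PTPRC and SPI1 had mean levels of 75.1 TPM (transcripts per M) or more in every group. The mean of MPO was 0.737 to 7.25 TPM and that of CD34 was 0.870 to 9.58 TPM. KIT and CD4 stayed at or under 0.133 TPM. Of these 7 and CSF2RA, 6 could be tested, and at 72 h 1 rose and 4 fell, CD34 by 2.29 ± 0.11 and SPI1 by 1.00 ± 0.07 (edgeR adjusted p = 3.1e-12 and 1.5e-09), when 38.8% of all genes rose and 36.8% fell. Among 8 markers of other cell types, MS4A1 was listed at 0 throughout and CD3E and HBB had means of at most 0.0633 TPM. The 3 that could be tested, CD3D, EPCAM and COL1A1, all rose at 24, 48 and 72 h. CD3D went from a mean of 0.447 TPM in DMSO to 16.1 TPM at 72 h, EPCAM from 0.0367 to 0.407 TPM and COL1A1 from 0.06 to 0.993 TPM, by 5.32, 4.11 and 5.06 on the log2 scale. The part of these genes in the results was not tested. PROCR, the targeted gene, measured 3.37, 4.30 and 3.38 TPM in DMSO and 48.5 TPM in each of the 3 libraries at 24 h of UM171. In sgEPCR cells PROCR measured 2.30, 4.53 and 3.93 TPM in DMSO, and 8.94, 4.23 and 8.41 TPM in UM171. Basal PROCR RNA was not lower in sgEPCR cells, since on the TMM scale of counts it was higher than in control DMSO libraries by 0.42 ± 0.12 (edgeR adjusted p = 0.022; 0.33 without the 2 libraries, adjusted p = 0.019). The PROCR response at 24 h was smaller in sgEPCR than in control cells by 3.06 ± 0.17 on the log2 scale (standard error; edgeR, adjusted p = 5.8e-07). Without the 2 libraries that difference was -2.92. Nothing in the sources used here says that the 3 libraries of a control group came from separate cultures, so p-values measure the spread between libraries, which may be technical.

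Levels below are in TPM, which corrects for gene length, and differences are log2 fold changes of counts from edgeR's quasi-likelihood test with trimmed-mean (TMM) scaling, given with standard errors. A gene was called at a Benjamini-Hochberg adjusted p under 0.05, over 16575 genes in the time course and 15901 in the genotype comparison. In DMSO, PIM1 was the most abundant of the 10 genes at 149 ± 8.82 TPM (SD, n = 3) and SOCS3 the least at 2.33 ± 0.305 TPM. Between them lay STAT3 at 61.8 ± 3.92, CISH at 53.5 ± 3.96 and STAT5B at 49.5 ± 2.38 TPM, whose ranges overlapped from one to the next. SOCS2 at 33.0 ± 0.420 and STAT5A at 32.7 ± 0.953 TPM were not separable. PIM3 at 25.7 ± 0.201, PIM2 at 22.5 ± 0.287 and SOCS1 at 8.15 ± 0.832 TPM followed without overlap.

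**Figure D2:**
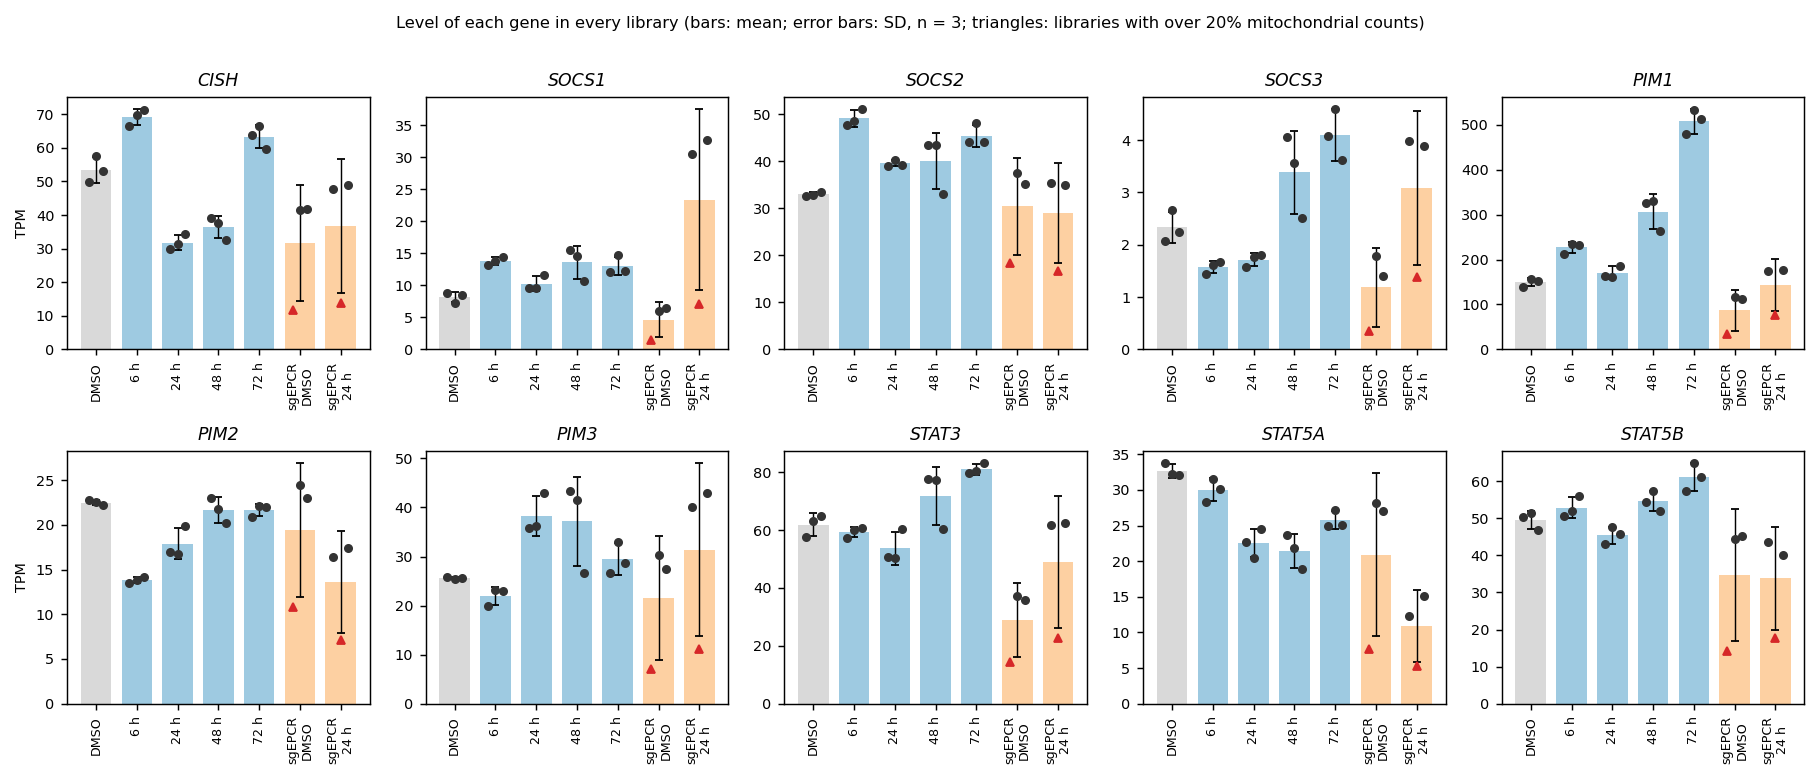
TPM (vertical axes, from 0) of each of the 10 genes in every library; points are libraries, bars are means and error bars are SD of 3 libraries for DMSO, 4 times in UM171, and both groups of sgEPCR cells. Red triangles are the 2 libraries with over 20% mitochondrial counts, the lowest of their group for all 10 genes; PIM1 climbs to 478 TPM or more at 72 h, and CISH dips to 29.8 to 34.3 TPM at 24 h.

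The 4 feedback inhibitor genes did not move as 1 block after UM171. CISH, whose product binds activated receptors, measured 49.7, 57.6 and 53.0 TPM in DMSO, 66.5, 69.8 and 71.4 TPM at 6 h, and 29.8, 31.4 and 34.3 TPM at 24 h. It then measured 39.2, 37.5 and 32.7 TPM at 48 h and 63.8, 66.5 and 59.6 TPM at 72 h. In these bulk libraries, fewer cells expressing a gene and less RNA per cell cannot be told apart. No 24 h or 48 h library reached the lowest DMSO library, and every 6 h and 72 h library exceeded the highest. CISH rose by 0.19 ± 0.05 at 6 h (edgeR adjusted p = 0.0046; 0.30 with offsets for GC content), fell by 0.82 ± 0.05 at 24 h (adjusted p = 4.6e-10), a 1.77-fold decrease, and by 0.59 ± 0.05 at 48 h (adjusted p = 2.5e-08). From 6 to 24 h it fell 2.01-fold (log2 difference -1.01 ± 0.05, adjusted p = 5.2e-11), and from 24 to 72 h it rose again by 0.95 ± 0.05 (adjusted p = 7.4e-11). The remaining difference from DMSO at 72 h, 0.13 ± 0.05 (adjusted p = 0.034), lost its call in 8 of 15 fits that left out 1 library, with adjusted p from 0.061 to 0.16. On GRCh38 CISH lies on the minus strand of chromosome 3, from 50606489 to 50611774. It shares 218 bases of exon with MAPKAPK3 on the opposite strand, and the strand setting of the counting was not given in the sources used here.

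SOCS1, an inhibitor of JAK kinase activity from a short GC-rich gene on chromosome 16 (11254417 to 11256204), was low in control cells. Its levels were 8.78, 7.21 and 8.47 TPM in DMSO, 13.1, 13.7 and 14.4 TPM at 6 h, and 9.54, 9.55 and 11.6 TPM at 24 h. It reached 15.5, 14.7 and 10.6 TPM at 48 h and 12.1, 14.7 and 12.3 TPM at 72 h. All libraries in UM171 lay above all DMSO libraries. SOCS1 rose by 0.58 ± 0.11 at 6 h (edgeR adjusted p = 1.4e-04), by 0.76 ± 0.10 at 48 h (adjusted p = 4.7e-06) and by 0.60 ± 0.10 at 72 h (adjusted p = 6.1e-05). The difference at 24 h, 0.27 ± 0.11 (adjusted p = 0.032), was not called without DMSO replicate 2 (adjusted p = 0.15), DMSO replicate 3 (0.053) or 24 h replicate 3 (0.13), nor with limma (0.29, adjusted p = 0.062). With offsets for GC content it was 0.77 (adjusted p = 2.9e-07), and the 48 h difference was 1.13 (adjusted p = 1.5e-09). Such offsets also take out GC-linked differences between groups, so they do not correct for library bias alone.

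SOCS2, which acts chiefly on growth hormone signals, had the steadiest levels of the 4 genes. It measured 32.7, 32.9 and 33.5 TPM in DMSO, 47.7, 48.6 and 51.2 TPM at 6 h, and 39.1, 40.3 and 39.4 TPM at 24 h. At 48 h it measured 43.6, 43.6 and 33.2 TPM, and at 72 h between 44.04 and 48.2 TPM. Apart from 48 h replicate 3, every library in UM171 lay above the DMSO range. SOCS2 rose by 0.28 ± 0.04 at 6 h (adjusted p = 2.2e-05 by edgeR), 0.22 ± 0.04 at 48 h (adjusted p = 1.9e-04) and 0.29 ± 0.04 at 72 h (adjusted p = 8.7e-06), and its difference at 24 h was 0.08 ± 0.04 (adjusted p = 0.12). The 24 h difference was called with limma on log2(TPM + 1) (0.25, adjusted p = 0.019). It was also called by edgeR with at least 10 counts in every library (0.10, adjusted p = 0.042). With GC offsets the 24 h difference was -0.05 (adjusted p = 0.28), and the 48 h difference was 0.09 and was not called (adjusted p = 0.065). SOCS2-AS1, a noncoding gene that overlaps 277 exon bases of SOCS2 on the other strand, went from 0.89, 1.48 and 1.35 TPM in DMSO to 6.55, 6.41 and 6.01 TPM at 72 h, a rise of 2.16 ± 0.16 (adjusted p = 2.1e-09). Reads of this pair in the shared stretch may not be separable.

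SOCS3, the inhibitor that binds gp130 and the G-CSF receptor, was the least expressed and changed direction over time. Its levels were 2.08, 2.67 and 2.24 TPM in DMSO, 1.45, 1.62 and 1.67 TPM at 6 h, and 1.58, 1.76 and 1.81 TPM at 24 h. At 48 h they were 4.06, 3.57 and 2.52 TPM and at 72 h 4.08, 4.60 and 3.61 TPM. The early libraries lay below every DMSO library, the 72 h libraries above, and 1 of the 48 h libraries overlapped with DMSO. SOCS3 fell by 0.73 ± 0.14 at 6 h (edgeR adjusted p = 2.4e-04) and by 0.48 ± 0.13 at 24 h (adjusted p = 0.0043), then rose by 0.57 ± 0.13 at 48 h (adjusted p = 6.6e-04) and 0.74 ± 0.13 at 72 h (adjusted p = 3.9e-05). Between 24 and 72 h the rise was 1.22 ± 0.13, or 2.34-fold (adjusted p = 2.0e-07). The 24 h difference was not called with GC offsets (-0.19, adjusted p = 0.15) or with limma on log2(TPM + 1) (-0.29, adjusted p = 0.060).

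Of the summed TPM of the 4 inhibitors, CISH made up 55.1% ± 2.09 (SD, n = 3) in DMSO and 51.8% ± 0.383 at 6 h. The CISH share was then 38.1% ± 1.12 at 24 h and 39.2% ± 1.94 at 48 h, and it was 50.3% ± 0.989 at 72 h. The shares at all 4 times lay below every DMSO share (2-sided exact permutation test, p = 0.1 at each time, the smallest that 3 against 3 libraries allow). At 24 h SOCS2 was thus the most abundant inhibitor transcript in control cells, with 39.6 ± 0.639 TPM against 31.8 ± 2.29 TPM for CISH.

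Among the kinases, PIM1, on the plus strand of chromosome 6 from 37170152 to 37175428, had the largest increase of the 10 genes. Its levels were 139.5, 156 and 152 TPM in DMSO, 212, 235 and 233 TPM at 6 h, and 162, 162 and 187 TPM at 24 h. They were 326, 331 and 263 TPM at 48 h and 478, 533 and 512 TPM at 72 h. The libraries of each time in UM171 lay above all DMSO libraries, and those at 72 h lay above all others. PIM1 rose by 0.44 ± 0.05 at 6 h (edgeR adjusted p = 5.6e-07), by 0.17 ± 0.05 at 24 h (adjusted p = 0.0041), by 1.08 ± 0.05 at 48 h (adjusted p = 2.5e-12) and by 1.69 ± 0.05 at 72 h (adjusted p = 8.5e-15), the last a 3.22-fold increase. The 24 h difference was 0.30 with GC offsets (adjusted p = 9.4e-06) and was not called with limma (0.19, adjusted p = 0.082). The course had a dip, since PIM1 fell by 0.27 ± 0.05 from 6 to 24 h (adjusted p = 9.4e-05) before it rose 2.86-fold from 24 to 72 h (1.52 ± 0.05, adjusted p = 1.0e-13).

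PIM2, the form best known from lymphoid and plasma cells, moved the other way early on. It measured 22.7, 22.5 and 22.2 TPM in DMSO, 13.5, 13.8 and 14.1 TPM at 6 h, and 17.0, 16.8 and 19.9 TPM at 24 h. At 48 h it measured 23.0, 21.8 and 20.2 TPM and at 72 h 20.9, 22.1 and 22.0 TPM. The 6 and 24 h libraries lay below every DMSO library, as did those of 72 h by less than the spread among them, and the 48 h libraries overlapped with DMSO. PIM2 fell by 0.85 ± 0.06 at 6 h (edgeR adjusted p = 4.8e-09), a 1.80-fold decrease, and by 0.36 ± 0.06 at 24 h (adjusted p = 3.7e-05). Its differences were 0.02 ± 0.06 at 48 h (adjusted p = 0.82) and -0.11 ± 0.06 at 72 h (adjusted p = 0.087).

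PIM3, the third and most GC-rich of the kinase genes, measured 25.9, 25.5 and 25.6 TPM in DMSO, 19.9, 23.1 and 23.0 TPM at 6 h, and 35.7, 36.1 and 43.0 TPM at 24 h. At 48 h it measured 43.3, 41.6 and 26.7 TPM. The low value came from replicate 3, which had the highest mitochondrial share of the control libraries, 13.5%. That library also differed most from its group, with a chi-square per degree of freedom of 46.2 and 49.9. Other control pairs stood at 9.33 or less. It had the lowest 48 h TPM of each of the genes followed here. At 72 h PIM3 measured 26.7, 33.1 and 28.6 TPM. PIM3 was lower at 6 h by 0.38 ± 0.10 (edgeR adjusted p = 0.0032), a call lost with total count scaling (adjusted p = 0.17) and with GC offsets (0.19). PIM3 rose by 0.55 ± 0.09 at 24 h (adjusted p = 6.2e-05) and 0.56 ± 0.09 at 48 h (adjusted p = 4.6e-05), and its difference at 72 h was 0.12 ± 0.10 (adjusted p = 0.26). With GC offsets these 3 differences were 1.06 (adjusted p = 1.3e-10), 0.95 (adjusted p = 4.7e-10) and 0.25 (adjusted p = 0.0016).

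The makeup of the kinase family shifted with these opposite courses. PIM1 accounted for 74.2 to 76.5% of the summed PIM TPM in DMSO libraries and for 86.3 to 86.4% at 6 h. The PIM1 share was back at 74.8 to 75.5% at 24 h, and it then reached 83.1 to 84.9% at 48 h and 90.6 to 91.0% at 72 h. The share was above every DMSO library at 6, 48 and 72 h (exact permutation test, 2-sided, p = 0.1 each) and overlapped with DMSO at 24 h (exact p = 0.6).

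**Figure D3:**
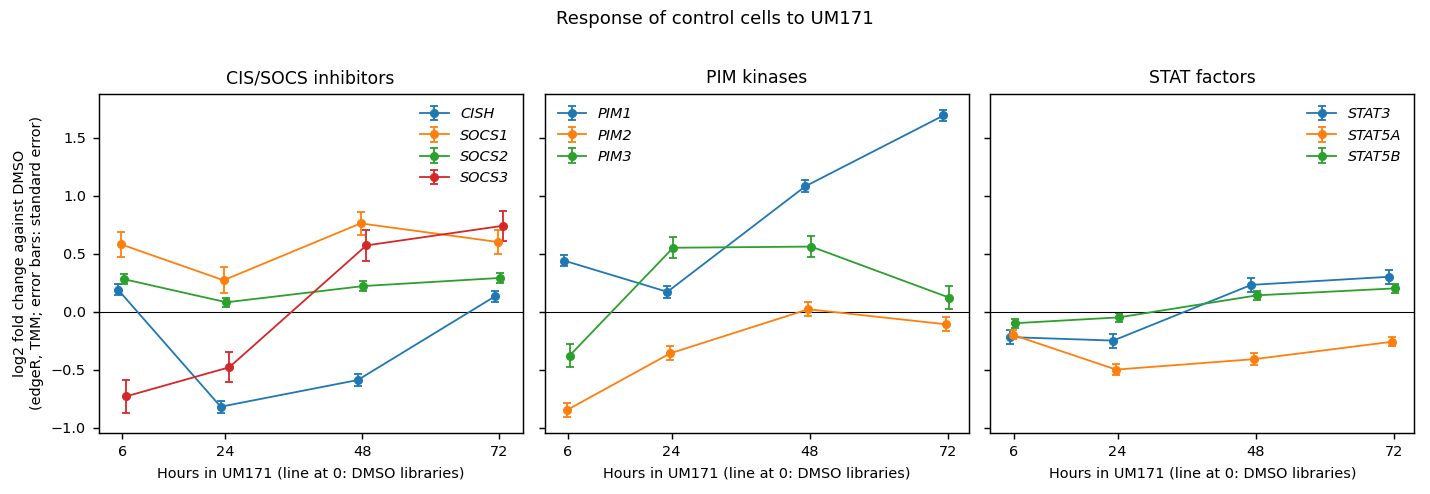
log2 fold change against DMSO (vertical axes) by hours in UM171 (horizontal axes) for the inhibitor, kinase and STAT genes of control cells; points are edgeR estimates from 3 libraries per group, error bars are standard errors, and the line at 0 stands for DMSO. PIM1 reaches 1.69 at 72 h while PIM2 starts at -0.85, and CISH is lowest at 24 h, at -0.82.

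The STAT genes changed less. STAT3 measured 57.4, 63.1 and 65.0 TPM in DMSO, 57.3, 60.0 and 60.8 TPM at 6 h, and 50.6, 50.3 and 60.3 TPM at 24 h. It measured 77.6, 77.4 and 60.4 TPM at 48 h and 79.6, 80.3 and 83.2 TPM at 72 h. In TPM, the 72 h libraries alone stood clear of DMSO. By the fit to counts, STAT3 was lower by 0.22 ± 0.06 at 6 h (edgeR adjusted p = 0.0034) and by 0.25 ± 0.06 at 24 h (adjusted p = 9.5e-04), and it rose by 0.23 ± 0.06 at 48 h (adjusted p = 0.0017) and 0.30 ± 0.06 at 72 h (adjusted p = 1.4e-04). The 6 h call was lost with total count scaling (-0.03, adjusted p = 0.72) and upper quartile scaling (-0.12, adjusted p = 0.081), and with limma the calls at 6 h (-0.06, adjusted p = 0.64), 24 h (-0.20, adjusted p = 0.074) and 48 h (0.20, adjusted p = 0.067) were lost.

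STAT5A was the one gene of the 10 that was called lower at all 4 times. It measured 33.8, 32.2 and 32.1 TPM in DMSO, 28.3, 31.6 and 30.2 TPM at 6 h, and 22.7, 20.5 and 24.5 TPM at 24 h. It stood at 23.6, 21.8 and 18.9 TPM at 48 h and at 25.0, 27.2 and 25.1 TPM at 72 h. Every library in UM171 was below the lowest DMSO library. STAT5A fell by 0.20 ± 0.04 at 6 h (edgeR adjusted p = 7.9e-04), 0.50 ± 0.05 at 24 h (adjusted p = 2.8e-08), 0.41 ± 0.05 at 48 h (adjusted p = 2.9e-07) and 0.26 ± 0.04 at 72 h (adjusted p = 5.9e-05). The 6 h difference was not called with total count scaling (-0.02, adjusted p = 0.73), upper quartile scaling (-0.11, adjusted p = 0.050) or limma (-0.12, adjusted p = 0.25), and it was -0.10 with GC offsets (adjusted p = 0.034).

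STAT5B, its near relative on chromosome 17, was within 0.20 of DMSO on the log2 scale at every time. Levels were 50.3, 51.4 and 46.8 TPM in DMSO, 50.6, 51.9 and 56.0 TPM at 6 h, and 43.1, 47.6 and 45.7 TPM at 24 h. They were 54.5, 57.5 and 51.9 TPM at 48 h and 57.5, 65.0 and 61.2 TPM at 72 h. The 48 and 72 h libraries exceeded every DMSO library, and those of 6 and 24 h overlapped with DMSO. STAT5B rose by 0.14 ± 0.04 at 48 h (adjusted p = 0.0020 by edgeR) and 0.20 ± 0.04 at 72 h (adjusted p = 5.3e-05), the 48 h call being lost with limma (0.14, adjusted p = 0.071). The 6 h difference of -0.10 ± 0.04 (adjusted p = 0.019) turned to 0.08 with total count scaling and 0.09 with limma on log2(TPM + 1), and it was not called without DMSO replicate 2 (adjusted p = 0.089). STAT5A thus made up 39.8% ± 1.14 (SD, n = 3) of the STAT5 TPM in DMSO libraries and 36.2% ± 1.45 at 6 h. Later the STAT5A share was 33.2% ± 2.67 at 24 h, then 28.1% ± 1.84 at 48 h, and finally 29.6% ± 0.604 at 72 h, below DMSO in every library (2-sided exact permutation p = 0.1 at each time). The 3 STAT genes lie side by side on chromosome 17, with STAT5B from 42199176 to 42288633, STAT5A from 42287547 to 42311943 and STAT3 from 42313324 to 42388540. STAT5A is on the plus strand and the other 2 on the minus strand, and STAT5A and STAT5B share 415 exon bases. In UM171 the direction of STAT5A against DMSO at 48 and 72 h was opposite to that of its neighbors on both sides.

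Counted over the 10 genes, 4 rose and 6 fell at 6 h, when 31.8% of all genes tested rose and 30.3% fell. At 24 h 3 rose and 5 fell (34.9% and 34.8% of all genes), at 48 h 7 rose and 2 fell (37.1% and 35.0%), and at 72 h 7 rose and 1 fell (38.8% and 36.8%). Between 6 and 24 h 2 rose and 5 fell (32.5% and 34.6% of all genes), and between 24 and 72 h 9 rose and 1 fell (36.4% and 33.4%). With calls this common across the transcriptome, a call by itself sets none of the 10 genes apart. The median difference of the 10 genes from DMSO was -0.15, -0.15, 0.22 and 0.25 at 6, 24, 48 and 72 h, against 0.02, -0.01, 0.00 and 0.02 over all genes tested. At 6 h the median of all genes stood at 0.20 with total count scaling and 0.12 with upper quartile scaling, so the lower calls of the STAT genes at that time hold relative to the TMM scale. The study itself used stricter limits, which ask for more than a 2-fold change with an adjusted p under 0.0001. By these, PIM1 passed at 48 h (16.4% of all genes passed) and 72 h (20.8%), CISH from 6 to 24 h (10.0%), and PIM1 and SOCS3 from 24 to 72 h (11.9%). At 6 h (7.03% of all genes) and 24 h (13.7%) the differences of all 10 genes from DMSO stayed under 2-fold on the TMM scale. With GC offsets PIM3 passed at 24 h (1.06; 13.1% of all genes passed) and from 6 to 24 h (1.16; 10.4%) and SOCS1 at 48 h (1.13; 16.4%), whereas CISH from 6 to 24 h (-0.96) and SOCS3 from 24 to 72 h (1.00; 11.6%) did not.

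Among the upstream genes of the pathway, JAK2, the kinase bound to the GM-CSF, IL-3 and erythropoietin receptors, was lower from 24 h on. It measured 18.3, 19.2 and 20.5 TPM in DMSO, 8.19, 8.06 and 7.92 TPM at 24 h, and 8.77, 9.28 and 9.94 TPM at 72 h. JAK2 fell by 1.29 ± 0.05 at 24 h (edgeR adjusted p = 1.4e-12), 1.39 ± 0.05 at 48 h (adjusted p = 4.4e-13) and 1.11 ± 0.05 at 72 h (adjusted p = 4.3e-12). JAK3, which pairs with the common gamma chain, went from 3.77, 4.26 and 3.89 TPM in DMSO to 17.7, 20.4 and 17.8 TPM at 72 h, a rise of 2.12 ± 0.12 (adjusted p = 3.1e-11). Of the 4 JAK genes, 2 rose and 2 fell at 72 h, when 38.8% of all genes tested rose and 36.8% fell; the list counts that follow are to be read against these shares.

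Receptor genes also moved in both directions. Of 15 listed receptors 12 could be tested, and at 72 h 9 rose and 3 fell. IL6R, the IL-6 receptor alpha chain, fell from 253 to 259 TPM in DMSO to 39.7 to 49.7 TPM at 72 h, by 2.64 ± 0.04 (edgeR adjusted p = 1.4e-17). CSF3R, the G-CSF receptor, fell by 1.2 ± 0.06 at 24 h (adjusted p = 1.6e-11) and rose by 1.75 ± 0.06 from 24 to 72 h (adjusted p = 2.6e-13). EPOR, the erythropoietin receptor, rose by 2.42 ± 0.13 at 72 h (adjusted p = 3.1e-11) and IL3RA, the IL-3 receptor alpha chain, by 1.07 ± 0.05 (adjusted p = 1.3e-12). CSF2RB, the beta chain shared by the GM-CSF and IL-3 receptors, rose at every time, by 0.41 ± 0.07 at 6 h and 1.00 ± 0.07 at 72 h (adjusted p = 5.1e-05 and 2.9e-10). CSF2RA, the GM-CSF receptor alpha chain, was higher by 0.40 ± 0.07 at 6 h (adjusted p = 1.0e-04), lower by 0.18 ± 0.07 at 24 h (adjusted p = 0.030) and higher by 0.45 ± 0.07 at 72 h (adjusted p = 1.3e-05).

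Of 9 ligand genes 3 could be tested, and CSF2, which encodes GM-CSF, had a mean of at most 0.153 TPM in any group. IL6 had 2, 0 and 0 counts in DMSO and 63, 67 and 82 counts at 72 h. The 4 other SOCS genes, SOCS4 to SOCS7, split into 2 that rose and 2 that fell at 72 h. The 4 other STAT genes all rose at 72 h, STAT4 from a mean of 0.02 TPM to 0.45 TPM. Of 10 other inhibitors (PIAS proteins, phosphatases and adaptors) 4 rose and 5 fell at 72 h. Of 10 other reported STAT5 targets, 1 was higher and 4 lower at 6 h (31.8% and 30.3% of all genes). At 24 h 0 were higher and 5 lower (34.9% and 34.8%), and at 48 h 5 and 2 (37.1% and 35.0%). At 72 h 2 were higher and 6 lower, so the prevailing direction was not the same at all times. BCL6, a gene known to be repressed by STAT5, rose by 1.76 ± 0.07 at 72 h (edgeR adjusted p = 5.5e-13), MYC fell by 1.24 ± 0.07 at 24 h (adjusted p = 8.7e-11), and BCL2L1, which encodes the survival protein BCL-XL, was lower by 0.29 ± 0.05 at 72 h (adjusted p = 1.3e-04). Of 8 genes of PIM substrates 4 rose and 3 fell at 72 h, and CDC25A, a cell cycle phosphatase, fell by 1.47 ± 0.05 (adjusted p = 4.6e-14).

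The genes nearest in pattern were sought among 10326 genes with a mean of at least 5 TPM, by the root mean square difference of log2(TPM + 1) group means over the 7 groups after centering. For CISH they were SIDT2 (0.0616), LRRC23 (0.0826) and HCG11 (0.0971). For PIM1 they were TMEM154 (0.0666), P4HA1 (0.126) and JAK3 (0.164), although PIM1 spanned 2.72 on that scale. For SOCS2 the nearest was NNT-AS1 (0.0494) and for SOCS3 LINC01881 (0.135). TMEM154 had means of 20.6 TPM in DMSO and 77.1 TPM at 72 h, and SIDT2 had means of 10.6 TPM in DMSO and 5.99 TPM at 24 h. These values describe likeness of group means, which share libraries, and carry no test.

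In sgEPCR cells the question was whether the 24 h response differed from that of control cells. The 2 libraries with high mitochondrial shares bear on every value here, so values without them are given beside those of all libraries. Without them each sgEPCR group keeps 2 libraries. Their chi-square per degree of freedom, a measure of difference beyond sampling noise, was 4.69 in DMSO and 1.65 in UM171, the lowest of all 21 pairs within groups. The small adjusted p-values without the 2 libraries thus rest on a spread between libraries that may be technical. Within sgEPCR cells, 4 of the 10 genes rose and 2 fell after 24 h of UM171, when 27.0% of all genes tested rose and 25.1% fell. SOCS1 had the largest change. It measured 1.48, 5.97 and 6.45 TPM in DMSO and 30.5, 7.06 and 32.6 TPM in UM171, where 1.48 and 7.06 TPM come from the high-mitochondrial libraries. All UM171 libraries exceeded all DMSO libraries. On the TMM scale, which is less moved by mitochondrial counts, SOCS1 stood at 2.71, 4.92 and 5.39 counts per M (CPM) in DMSO and 21.9, 9.68 and 23.4 CPM in UM171. SOCS1 rose by 2.07 ± 0.32, or 4.19-fold (edgeR adjusted p = 3.2e-04), and by 2.14 without the 2 libraries (adjusted p = 4.0e-10).

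SOCS3 measured 0.35, 1.79 and 1.41 TPM in sgEPCR DMSO and 3.98, 1.39 and 3.88 TPM in sgEPCR UM171. The high-mitochondrial UM171 library overlapped with DMSO in TPM but stood above it in CPM, at 4.45 against 1.5 to 3.45 CPM. SOCS3 rose by 1.18 ± 0.25 (edgeR adjusted p = 0.0026; 1.10 without the 2 libraries, adjusted p = 6.9e-06). CISH, by contrast, measured 11.8, 41.6 and 41.9 TPM in DMSO and 47.6, 13.7 and 49.0 TPM in UM171. Its difference was -0.05 ± 0.21 (edgeR adjusted p = 0.87), and 2 standard errors on either side ran from -0.47 to 0.37. Without the 2 libraries the difference was 0.00 (adjusted p = 0.96). SOCS2 measured 18.5, 37.5 and 35.3 TPM in DMSO and 35.4, 16.7 and 34.9 TPM in UM171, and its difference was -0.16 ± 0.06 (adjusted p = 0.058; -0.13 without the 2 libraries, adjusted p = 0.020).

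PIM1 measured 33.6, 116 and 111 TPM in sgEPCR DMSO and 175, 77.4 and 177 TPM in sgEPCR UM171. It rose by 0.52 ± 0.14 (edgeR adjusted p = 0.0098; 0.42 without the 2 libraries, adjusted p = 7.9e-06). PIM2 measured 10.8, 24.5 and 23.0 TPM in DMSO and 16.4, 7.09 and 17.4 TPM in UM171. In CPM the PIM2 groups stood well apart, at 32.9 to 34.1 CPM in DMSO and 16.8 to 20.9 CPM in UM171. PIM2 fell by 0.80 ± 0.10 (adjusted p = 4.5e-05; -0.71 without the 2 libraries, adjusted p = 5.6e-07). PIM3 spread from 7.09 to 30.3 TPM in DMSO and from 11.1 to 43.0 TPM in UM171, and its difference of 0.30 ± 0.26 was not called (adjusted p = 0.36), whereas it was called without the 2 libraries (0.32, adjusted p = 0.0012). The PIM1 share of PIM TPM was 65.2 to 68.9% in DMSO and 74.6 to 81.0% in UM171 (exact permutation test, 2-sided, p = 0.1).

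STAT5A had the largest decrease. It measured 7.69, 28.1 and 27.0 TPM in sgEPCR DMSO and 12.3, 5.24 and 15.1 TPM in sgEPCR UM171. In CPM the groups did not overlap, at 41.3 to 60.2 CPM in DMSO and 17.0 to 28.3 CPM in UM171. STAT5A fell by 1.12 ± 0.18, or 2.18-fold (edgeR adjusted p = 3.8e-04), and by 1.08 without the 2 libraries (adjusted p = 1.4e-10). STAT3 measured 14.3, 37.1 and 35.7 TPM in DMSO and 61.9, 22.8 and 62.5 TPM in UM171, and rose by 0.54 ± 0.15 (adjusted p = 0.012; 0.58 without the 2 libraries, adjusted p = 9.5e-07). Leaving out sgEPCR UM171 replicate 3 gave 0.44 and no call (adjusted p = 0.052). STAT5B measured 14.2, 44.6 and 45.3 TPM in DMSO and 43.5, 17.8 and 40.0 TPM in UM171, a difference of -0.28 ± 0.17 (adjusted p = 0.21; -0.23 without the 2 libraries, adjusted p = 8.4e-05). STAT5A made up 35.1 to 38.7% of STAT5 TPM in sgEPCR DMSO and 22.1 to 27.4% in sgEPCR UM171 (2-sided exact permutation p = 0.1).

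The difference between the responses of sgEPCR and control cells was tested directly as an interaction, and 5 of the 10 genes were called, 3 higher and 2 lower in sgEPCR cells, against 21.9% and 23.1% of all genes. The response of SOCS1 was larger in sgEPCR cells by 1.78 ± 0.45 (edgeR adjusted p = 0.0078), that of SOCS3 by 1.65 ± 0.36 (adjusted p = 0.0033) and that of STAT3 by 0.78 ± 0.22 (adjusted p = 0.013). SOCS3 and STAT3 were lower after 24 h of UM171 in control cells and higher in sgEPCR cells. The response of PIM2 was lower in sgEPCR cells by 0.46 ± 0.14 (adjusted p = 0.018) and that of SOCS2 by 0.25 ± 0.09 (adjusted p = 0.048), the latter called in none of 11 fits that left out 1 library other than sgEPCR UM171 replicate 2. For CISH the responses were -0.82 in control and -0.05 in sgEPCR cells. The CISH interaction of 0.76 ± 0.30 missed the threshold (edgeR adjusted p = 0.060, with 2 standard errors on either side 0.16 to 1.36). It passed without the 2 libraries (0.82, adjusted p = 2.1e-07). For STAT5A it was -0.63 ± 0.25 (adjusted p = 0.065; -0.57 without the 2 libraries, adjusted p = 1.6e-06) and for PIM1 0.34 ± 0.20 (adjusted p = 0.19; 0.25 without the 2 libraries, adjusted p = 0.0058). Without the 2 libraries, 9 of the 10 genes were called, PIM3 being the exception, when 33.6% of all genes were called higher and 35.6% lower. The 5 calls depended on the scale. With limma on log2(TPM + 1) all 5 were lost (adjusted p from 0.11 for SOCS3 to 0.87 for PIM2), with total count scaling SOCS1 (adjusted p = 0.042) and SOCS3 (0.033) were called, and with upper quartile scaling PIM2 (-0.32, adjusted p = 0.089) and SOCS2 (-0.11, adjusted p = 0.38) were lost. In the genotype comparisons with all 12 libraries none of the 10 genes passed the stricter limits by edgeR, against 10.3% of all genes for the response in sgEPCR cells, 2.84% between genotypes in DMSO, 4.46% between genotypes in UM171 and 7.77% for the interaction. Without the 2 libraries SOCS1, SOCS3 and STAT5A passed for the response in sgEPCR cells (15.7% of all genes), none between genotypes in DMSO (6.50%), and SOCS1 and SOCS3 between genotypes in UM171 (9.87%) and for the interaction (19.1%). With GC offsets 3, 0, 1 and 2 genes passed in the same order (13.4%, 4.70%, 6.80% and 12.7% of all genes).

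**Figure D4:**
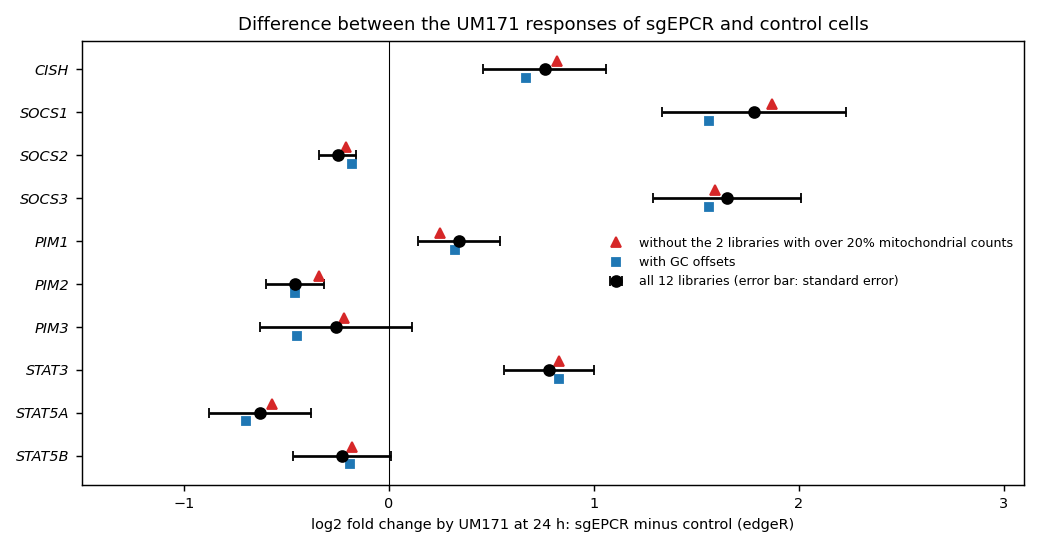
Difference between the 24 h responses to UM171 of sgEPCR and control cells for the 10 genes, as log2 fold change on the horizontal axis; black points are edgeR estimates from 12 libraries with standard errors, red triangles leave out the 2 libraries with over 20% mitochondrial counts, and blue squares use GC offsets. SOCS1 (1.78) and SOCS3 (1.65) lie farthest to the right, and the 3 estimates have the same sign for every gene.

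In DMSO, sgEPCR cells had lower RNA than control cells for STAT3, by 0.83 ± 0.15 (edgeR adjusted p = 0.0018, and -0.72 without the 2 libraries, adjusted p = 8.1e-08), and for PIM1, by 0.44 ± 0.14 (adjusted p = 0.032), while 17.4% of all genes were called higher and 16.3% lower. The PIM1 call was lost when any 1 of the DMSO libraries was left out (adjusted p from 0.064 to 0.094), and its difference was -0.27 (adjusted p = 0.037) without sgEPCR DMSO replicate 1 and -0.28 (adjusted p = 2.2e-04) without both high-mitochondrial libraries. Without those libraries all 10 genes were called, 3 higher and 7 lower, when 30.3% of all genes were called higher and 30.0% lower, with CISH at -0.27, SOCS3 at -0.45 and STAT5A at -0.20. In UM171 at 24 h, sgEPCR cells exceeded control cells in SOCS1, by 1.27 ± 0.31 (adjusted p = 0.0074, and 1.59 without the 2 libraries), and SOCS3, by 0.98 ± 0.25 (adjusted p = 0.0091, and 1.14 without them), and had less STAT5A, by 0.96 ± 0.18 (adjusted p = 0.0015, and -0.77 without them), and STAT5B, by 0.47 ± 0.17 (adjusted p = 0.048), when 20.8% of all genes were called higher and 22.2% lower. The STAT5B call was lost in 9 of 12 fits that left out 1 library, and its value without sgEPCR UM171 replicate 2 was -0.29 (adjusted p = 0.082). PIM1 differed by -0.10 ± 0.14 (edgeR adjusted p = 0.58) between the genotypes in UM171, with 2 standard errors on either side from -0.38 to 0.18. Without the 2 libraries PIM1 differed by -0.03 (adjusted p = 0.57). All 4 calls in UM171 were lost with limma (adjusted p from 0.14 to 0.44), and SOCS1 (adjusted p = 0.065) and SOCS3 (0.11) were not called with total count scaling.

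Upstream genes differed by genotype as well. JAK2 measured 5.18, 9.50 and 8.96 TPM in sgEPCR DMSO and 11.7, 8.81 and 11.6 TPM in sgEPCR UM171, with a response of 0.20 ± 0.13 (edgeR adjusted p = 0.23, and 0.14 without the 2 libraries, adjusted p = 0.025) and an interaction of 1.49 ± 0.19 (adjusted p = 1.0e-04, and 1.44 without them). CSF2RA measured 2.64, 4.94 and 6.24 TPM in sgEPCR DMSO and 18.3, 8.48 and 21.3 TPM in sgEPCR UM171, a rise of 1.60 ± 0.11 (adjusted p = 7.1e-07, and 1.63 without the 2 libraries) with an interaction of 1.78 ± 0.15 (adjusted p = 7.1e-06, and 1.81 without them). IL3RA rose by 2.08 ± 0.16 in sgEPCR cells (adjusted p = 1.4e-06, and 2.06 without the 2 libraries), with an interaction of 2.91 ± 0.22 (adjusted p = 3.0e-06, and 2.90 without them). Of the 11 receptors tested 7 had a higher and 1 a lower response in sgEPCR cells, with and without the 2 libraries. Over all genes the shares were 21.9% higher and 23.1% lower with them, and 33.6% and 35.6% without them. OSM, a STAT5 target that encodes oncostatin M, rose by 3.13 ± 0.41 in sgEPCR cells (adjusted p = 9.5e-05, and 3.1 without the 2 libraries), from 6, 34 and 61 counts to 400, 108 and 493 counts. MYC fell by 1.98 ± 0.10 (adjusted p = 7.1e-08, and -1.93 without the 2 libraries), and BCL6 rose by 1.46 ± 0.09 (adjusted p = 3.2e-07, and 1.43 without them) with an interaction of 1.29 ± 0.12 (adjusted p = 1.6e-05, and 1.28 without them). BCL2L1 differed by 0.21 ± 0.11 (adjusted p = 0.13) and was called without the 2 libraries (0.28, adjusted p = 4.9e-04).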

How the data were processed

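Poly(A) RNA of 21 OCI-AML5 libraries was prepared with a stranded kit. For each library the authors deposited expected counts and TPM per gene, made with RSEM 1.2.28 after STAR 2.5.1b and Trimmomatic 0.35 on GRCh38 according to the submitters' processing notes; the study's methods name other quantification tools for its own statistics. Expected counts are not normalized and can split reads between overlapping genes, and TPM are scaled by transcript length. For the pseudoautosomal genes, 45 Y entries were added to their X counterparts, and 57392 of the 58174 identifiers had a symbol. Depth per library was 24.3 to 51.5 M counts.

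Expected counts were rounded and tested with edgeR 4.0.16 in R 4.3.3 (filterByExpr, TMM, quasi-likelihood test, Benjamini-Hochberg adjustment over all genes tested), with control libraries in a fit of 15 and both genotypes at DMSO and 24 h in a fit of 12. Standard errors were obtained by dividing each log2 fold change by the root of its F statistic. Shares were compared with 2-sided exact permutation tests. On simulated data with 200 changed genes, 200 were recovered for UM171 at 24 h (16063 genes, 10 false calls) and 193 for the interaction (15532 genes, 9 false calls). All planted changes were over 2-fold, in genes above a minimum level, with the same spread for every gene and no high-mitochondrial libraries. Recovery of smaller changes, as most of those given here are, and false calls in libraries as uneven as the sgEPCR ones were not tested. All 21 pairs of libraries within a group differed by more than sampling noise (lowest chi-square per degree of freedom 1.65). GC content is of annotated transcripts. GC offsets are a smooth, along GC content, of each library's deviation from the mean of all libraries in the fit. They therefore also remove GC-linked differences between treatments or genotypes.

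The 10 genes and the pathway lists were chosen with earlier results of these data known. All 10 are named; genes of the lists are counted by direction and named where they passed an adjusted p under 0.0001 and a 2-fold change, at most 4 per list and comparison, with JAK2, CSF2RA, CSF2RB, BCL2L1 and PROCR named in any case. Alternatives were limma 3.58.1 on log2(TPM + 1) with a pseudocount of 1, DESeq2 1.42.0, upper quartile and total count scaling, no filter or at least 10 counts in every library, 1 fit of all 21 libraries, the replicate number as a block, no mitochondrial genes, the stricter limits, and leaving out each library; GC offsets and the gene values without the 2 high-mitochondrial libraries were chosen after seeing the data. The setting with no mitochondrial genes also left out DMSO replicate 1 of the control cells, so removal of those genes alone was not tested. Figures were drawn with matplotlib 3.10.9. The study's other experiments were not used here. Some of the marker genes are not reported here.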

Additional observations from a re-analysis of the deposited data

Results flagged for a closer look

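The difference between the 24 h responses of sgEPCR and control cells, tested as an interaction with edgeR, passed an adjusted p under 0.05 for the following genes. It was 1.78 for SOCS1, 1.65 for SOCS3 and 0.78 for STAT3 on the log2 scale, the response being higher in sgEPCR cells, and -0.46 for PIM2 and -0.25 for SOCS2, the response being lower. Without the 2 high-mitochondrial libraries the 5 values were 1.87, 1.59, 0.83, -0.34 and -0.21. With limma on log2(TPM + 1) none of the 5 was called (adjusted p from 0.11 to 0.87), and with total count scaling SOCS1 and SOCS3 alone were.

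Among the named genes outside the family, it was 1.49 for JAK2, 1.78 for CSF2RA, 2.91 for IL3RA and 1.29 for BCL6, and -3.06 for PROCR, the targeted gene. Control DMSO libraries were collected at 72 h by the labels, or at time 0 by the study, and sgEPCR DMSO libraries at 24 h, so the interaction cannot be told apart from an effect of time in DMSO.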

How the results depend on the processing

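Of 2420 values of the 10 genes under alternatives, 41 changed direction, 128 lost and 68 gained a call. Of the values called in the main fits 3 changed direction: STAT5B at 6 h against DMSO became 0.09 with limma on log2(TPM + 1) and 0.08 with total count scaling, and SOCS1 from 24 to 72 h became -0.05 with GC offsets; the cause was not tested.

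The other values that changed direction were not called in the main fits. In control cells they were SOCS2 at 24 h with GC offsets (-0.05), PIM2 at 48 h with limma (-0.05) and without DMSO replicate 3 or 48 h replicate 3 (0.00 and -0.01), STAT5B from 6 to 24 h with limma, upper quartile and total count scaling (-0.21, -0.06 and -0.10), and STAT3 from 6 to 24 h with no filter (0.03) and without 24 h replicate 1, 24 h replicate 2 or 6 h replicate 3 (0.01, 0.01 and 0.03). For the response within sgEPCR cells they were CISH with limma (0.20), upper quartile scaling (0.07), total count scaling (0.12), at least 10 counts in every library (0.02), GC offsets (0.02) and without sgEPCR DMSO replicate 2, sgEPCR DMSO replicate 3 or sgEPCR UM171 replicate 2 (0.04, 0.05 and 0.17; the range over all left-out libraries was -0.23 to 0.17), STAT5B with limma (0.03) and SOCS2 with total count scaling (0.02). Between genotypes in DMSO they were SOCS2 (-0.18 with limma, -0.10 with total count scaling), PIM2 (-0.28 and -0.04) and PIM3 (-0.47 and -0.14, -0.01 with upper quartile scaling, -0.11 and -0.04 without sgEPCR DMSO replicate 2 or 3, range -0.11 to 0.29). Between genotypes in UM171 they were STAT3 (0.02 with upper quartile scaling, 0.01 with GC offsets, 0.11 without the 2 high-mitochondrial libraries, 0.01 without 24 h replicate 3, 0.10 without sgEPCR UM171 replicate 2, range -0.16 to 0.10) and PIM3 (0.06 without the 2 libraries, 0.05 without sgEPCR UM171 replicate 2, range -0.38 to 0.05). The STAT5B interaction was 0.15 with limma.

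The number of the 10 genes called against DMSO at 6, 24, 48 and 72 h was 10, 8, 9 and 8. With the stricter limits it was 0, 0, 1 and 1, with 1 from 6 to 24 h, 2 from 24 to 72 h, and 0 in each of the 4 genotype comparisons. With limma it was 6 at 6 h, 5 at 24 h, 1 for the response in sgEPCR cells, and 0 between genotypes in DMSO, between genotypes in UM171 and for the interaction. With total count scaling it was 6 at 6 h, 1 between genotypes in DMSO, 1 in UM171 and 2 for the interaction. With all 21 libraries in 1 fit, which brings in the wider spread of the sgEPCR libraries, it was 4 at 6 h, 4 at 24 h, 3 at 72 h, 4 from 6 to 24 h, 6 from 24 to 72 h and 6 between genotypes in DMSO. Between genotypes in DMSO, where 2 were called, it was 4 with DESeq2 and 1 with no filter. It was also 1 without the mitochondrial genes, a fit that lacked DMSO replicate 1 as well. With GC offsets it was 7 (22.4% of all genes higher and 22.5% lower), and without the 2 high-mitochondrial libraries 10 (30.3% and 30.0%). For the interaction, where 5 were called, it was 8 with GC offsets (26.6% and 29.6% of all genes) and 9 without the 2 libraries (33.6% and 35.6%). Shares over all genes are not given here for the other alternatives, so those counts describe only how calls moved.

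Leaving out 1 library at a time gave 9 to 10 called genes at 6 h, 7 to 8 at 24 h, 9 at 48 h, 7 to 9 at 72 h, 6 to 7 from 6 to 24 h, 9 to 10 from 24 to 72 h, 5 to 8 for the response in sgEPCR cells, 1 to 7 between genotypes in DMSO (7 without sgEPCR UM171 replicate 2, 1 without each DMSO library), 3 to 5 between genotypes in UM171 and 4 to 6 for the interaction. In control cells, deviations from the group mean correlated across genes at -0.08 to 0.07 for same-numbered libraries and at -0.13 to 0.14 for differently numbered ones. Same-numbered sgEPCR libraries correlated at -0.56, -0.56 and 0.41. The 2 high-mitochondrial libraries carry different numbers and weigh heavily on deviations from means of 3 libraries. The sgEPCR values therefore cannot show whether replicate numbers pair those libraries. Differently numbered sgEPCR libraries correlated at -0.54 to 0.66, and the highest value was that of the 2 high-mitochondrial libraries with each other. Whether those libraries are linked was not tested. With the replicate number as a block the count was 3 between genotypes in UM171, where STAT5B (-0.48, adjusted p = 0.071) was not called, and 4 for the interaction, where SOCS2 (-0.25, adjusted p = 0.095) was not called, and it changed no other call of the 10 genes. SOCS3 had the fewest reads of the 10 genes and, with SOCS1, the widest standard errors in the time course.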
